A study of Mus musculus with 6 samples.

Results

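The BCL2 family sets whether a cell under stress opens its mitochondrial outer membrane and dies. Transcript levels of 10 of its genes were compared between control and Dicer-deficient mouse telencephalon, and 1 of the 10, Bcl2l11, differed between the genotypes. The genes were chosen by name for their roles in the family, and all 10 were found among the 55471 gene identifiers of the count tables. They are the BH3-only genes Bcl2l11, Bbc3, Pmaip1, Bmf and Bid, the pore-forming genes Bax and Bak1, and the pro-survival genes Bcl2, Bcl2l1 and Mcl1. The study asked what miRNAs do in the early forebrain, where it examined apoptosis and p53 signalling. RNA came from the rostral end of the telencephalic primordium at E11.5, with 3 control and 3 Rx-Dicer libraries. Control embryos carried floxed Dicer alleles without Cre and were labelled WT. Rx-Dicer embryos carried the same floxed alleles and Rx-Cre, a line that recombines in the early forebrain, so Dicer, the RNase that releases mature miRNAs from their precursors, is deleted only in cells where that driver was active. The Cre line was kept in a CD1 background and the floxed Dicer line in C57BL/6. Whether libraries came from single or pooled embryos is not stated, so p-values measure the spread between these libraries only.

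Family members act by binding each other. BH3-only proteins are sensors, raised or activated by growth factor loss, DNA damage and other stress, and they bind and block pro-survival proteins or activate the pore-formers directly. Pro-survival proteins hold the pore-formers Bax and Bak in check, and once freed these open the outer membrane and release cytochrome c, which starts the caspase cascade. Several BH3-only genes are transcribed by p53 or FOXO factors, and several family mRNAs are known miRNA targets.

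Because Dicer makes miRNAs, the seed matches of Bcl2l11 are shown first. Its gene (ENSMUSG00000027381) lies on GRCm38 chromosome 2, 128126038 to 128162547, plus strand, and its longest annotated 3′ UTR has 4218 bases. This UTR was searched for the 8-base matches of 11 miRNAs chosen because they are known to act on family genes, so the number of matches is no evidence of its own. It held 7 matches for 6 of the 11, more miRNAs than any other member. The mature sequences of these 6, from RefSeq for GRCm38.p6, are shown with the seed (bases 2 to 8) in capitals, and each has a seed of its own.
miR-9-5p: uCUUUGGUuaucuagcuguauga
miR-17-5p: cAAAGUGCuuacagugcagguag
miR-24-3p: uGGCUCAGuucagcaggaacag
miR-92a-3p: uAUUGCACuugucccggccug
miR-181a-5p: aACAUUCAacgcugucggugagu
miR-221-3p: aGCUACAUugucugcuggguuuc

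The 7 sites in the Bcl2l11 3′ UTR follow in order along the transcript, within 30 bases of reference sequence each and with the seed match in capitals. The match to miR-181a starts at base 219 of the UTR, chr2:128158548-128158555, and the last, to miR-92a, at base 4120, chr2:128162449-128162456.
miR-181a site: aatatttgttgTGAATGTAaacaagggagg
miR-24 site at base 476: tgcagtgggaaCTGAGCCAgctgatttata
miR-9 site: cacacacacacACCAAAGAcatacttggtc
miR-17 site: ccccgactggaGCACTTTActgtctcagcc
miR-24 site at base 2828: tcactcgtcaaCTGAGCCAaatgtctctgt
miR-221 site: gaacccagcgtATGTAGCAtttgtattgca
miR-92a site: ccactgtacctGTGCAATActgctgtaaat
Long UTRs hold such words often. Among 1261 annotated 3′ UTRs of similar length (no more than 0.32 apart in log2 length), 21.1% had the miR-24 word, 14.2% the miR-181a word, 11.8% the miR-9 word, 9.99% the miR-17 word, 9.83% the miR-221 word and 6.9% the miR-92a word. These are letter matches in a reference sequence, and miRNA levels were not analysed here. The study reported significantly lower levels in this tissue at E11.5 for only a few mature miRNAs, most of them let-7 family members. Whether the miRNAs above were among them was not examined here.

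The series title turns on let-7, and the only member with an 8-base let-7 match was Bcl2l1, which encodes the pro-survival protein BCL-XL. The match, chr2:152781191-152781198 on the minus strand, follows the miRNA, with seed and match in capitals. In 14054 annotated 3′ UTRs, 3.79% had this word, and 3.73% of 2384 UTRs of similar length did.
let-7a-5p: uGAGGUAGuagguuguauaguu
Bcl2l1 site: caggggcttccCTACCTCAggcaggaaggg
Among the other members, Mcl1 had matches for 4 of the 11 miRNAs (miR-17, miR-29a, miR-92a and miR-125b), Bmf for 3 (miR-29a, miR-125b at 3 places, and miR-221), Bak1 for 2 (miR-29a and miR-125b), Bcl2 for 2 (miR-16 and miR-181a) and Bbc3 for 1 (miR-221). Pmaip1, Bax and Bid had no 8-base match, and none of the 10 had a match for miR-34a. Mcl1 and Bmf thus had several matches, and neither was called different below.

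Libraries held 34471501 to 48373468 counts, and 3 counts, the floor that a count of 0 allows, came to 2.57 to 3.66 normalised counts. The member with the fewest counts in any library, Pmaip1 in control 2, stood well above that floor. Dicer1 was 6355, 7070 and 6270 normalised counts in control 1, 2 and 3, and 4777, 7002 and 4644 in Rx-Dicer 1, 2 and 3. The library labelled Rx-Dicer 2 thus had the level of the controls, and results that rest on it are given with and without it. Between the genotypes Dicer1 was not called, at 0.834-fold (95% interval 0.664 to 1.05, DESeq2 adjusted p = 0.567). Its counts include exons outside the floxed segment. The 10 telencephalic progenitor markers listed, Pax6 and Sox2 among them, summed to 172419 to 196038 normalised counts in controls and 163561 to 177122 in Rx-Dicer. None of the 10 was at 0. DESeq2 called Pax6 and Fabp7 lower and Six3 higher, against 1.18% and 1.75% of all genes tested. Over their lists, newborn neuron markers ranged from 61568 to 80657 against 50586 to 71267, erythroid from 436043 to 1014961 against 359770 to 1013147, mesenchyme from 36989 to 81237 against 57803 to 72988, and endothelium from 8661 to 8988 against 5233 to 11704. None of the genes of these 4 lists was called by DESeq2 or by edgeR. By DESeq2, 4 of 42 had an unadjusted p under 0.05, against 13.1% of all genes tested, and by edgeR 3. Of the 4, 3 were newborn neuron genes with lower means in Rx-Dicer (Tbr1, Elavl3 and Gap43), and Lum, a mesenchyme gene, was higher. The median log2 fold change of the newborn neuron list was -0.212, and 2 of its 10 genes were lower without overlap of groups, against 10.7% of all genes tested. The part of such cells in the levels of the members was not tested.

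Of the 5 BH3-only genes, Bcl2l11 rose 1.9-fold in Rx-Dicer and was called by both tests, Bbc3 and Pmaip1 had higher means without being called, and Bmf and Bid had nearly equal means. Bcl2l11 encodes BIM, a BH3-only protein that binds every main pro-survival protein and can activate Bax directly. Its normalised counts (reads divided by DESeq2 size factors) were 952, 1071 and 1059 in controls against 2088, 1819 and 1956 in Rx-Dicer. All 3 Rx-Dicer libraries lay above all 3 controls. The lowest of them, the library labelled Rx-Dicer 2, was at 1.7-fold the highest control. Group means were 1027 ± 65.9 and 1954 ± 135 (SD, n = 3 each). On the log2 scale the difference was 0.93 ± 0.13 (SE), or 1.9-fold (95% interval 1.6 to 2.26), with a DESeq2 adjusted p of 4.02e-10. A gene was called when its adjusted p was under 0.05 and its log2 fold change beyond 0.32 in either direction. Of 17128 genes tested, 2.93% were called, 1.75% higher and 1.18% lower, against 1 of 10 members higher and 0 lower, and 3 members had an unadjusted p under 0.05, against 13.1% of all genes. Bcl2l11 ranked 12 of 17128 by DESeq2 adjusted p and 114 of the 300 higher calls by fold, so the spread between its libraries was small for a change of ordinary size. With edgeR's quasi-likelihood test its adjusted p was 0.024, among 8 genes of 17954 (0.0446%) that this test called.

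**Figure D1:**
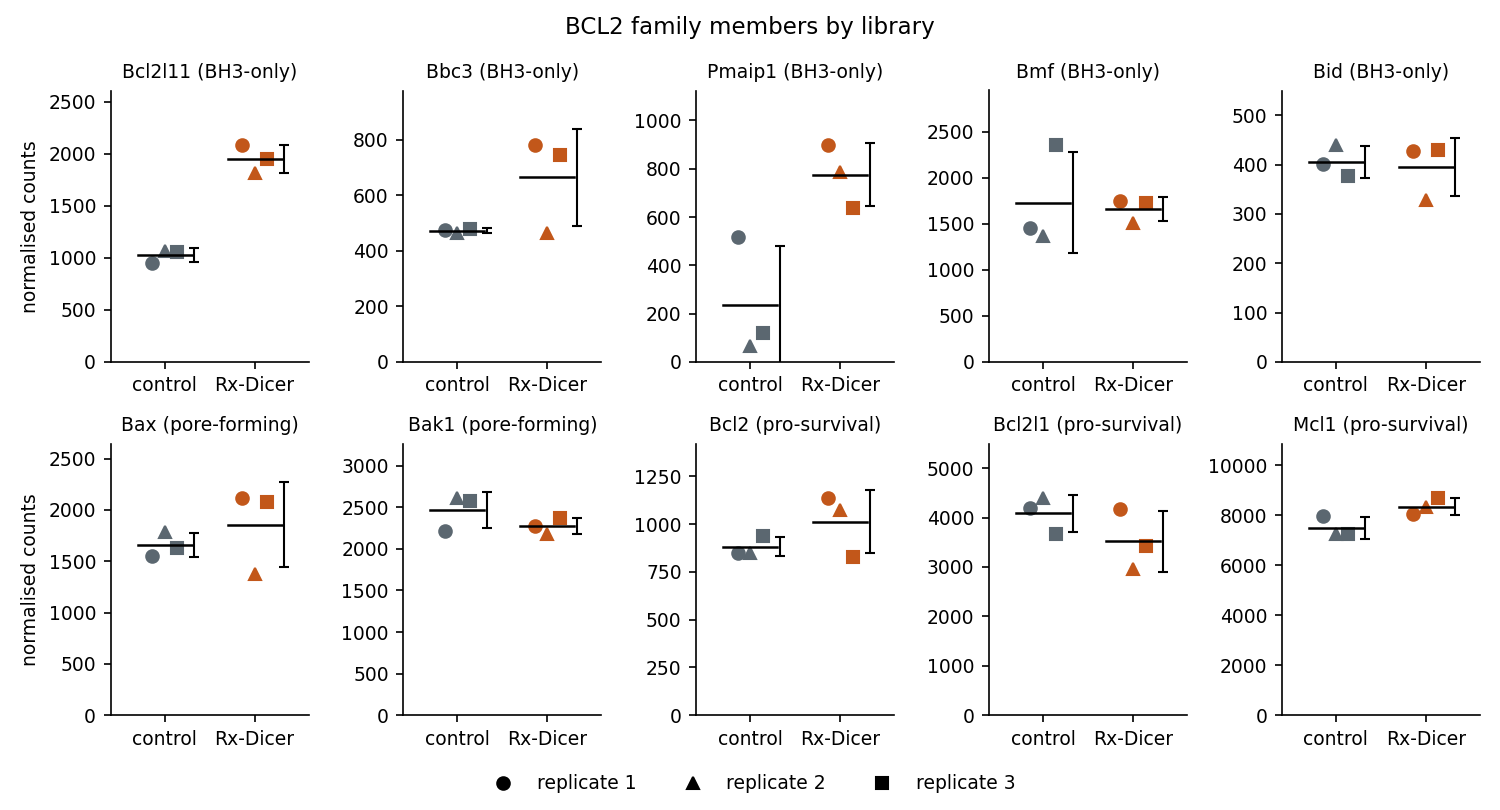
Normalised counts of each member in every library (y axis from 0, a scale of its own in each panel). Points are libraries, with marker shape for the replicate number, horizontal bars are means and the bars at their side are the SD over 3 libraries (cut at 0 for Pmaip1). Bcl2l11 shows tight groups that do not overlap, Bbc3 and Bax show the library labelled Rx-Dicer 2 apart from Rx-Dicer 1 and 3, and Pmaip1 shows control 1 apart from the other controls.

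Bbc3 encodes PUMA, a BH3-only protein transcribed by p53. Its gene (ENSMUSG00000002083) lies on GRCm38 chromosome 7, 16308393 to 16318205, plus strand. Controls had 475, 462 and 477 normalised counts and Rx-Dicer 781, 465 and 746. The controls were nearly equal, Rx-Dicer 1 and 3 stood above them, and the library labelled Rx-Dicer 2 fell among them. The log2 fold change was 0.49 ± 0.20 (SE), 1.41-fold (95% interval 1.07 to 1.86), and was not called, with a DESeq2 adjusted p of 0.204. Without the library labelled Rx-Dicer 2 it was 0.70 with an adjusted p of 2.79e-05, a call, in a fit where 3.77% of genes were called and 2.55% higher.

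Pmaip1 encodes NOXA, a BH3-only protein that binds mainly Mcl1 and is also a p53 target. It (ENSMUSG00000024521) lies on chromosome 18. Its normalised counts were 519, 65.2 and 118 in controls against 899, 788 and 638 in Rx-Dicer. The groups did not overlap, but control 1 stood far above the other controls and close to Rx-Dicer 3. The means were 234 ± 248 and 775 ± 131 (SD, n = 3 each), the widest relative spread among controls of any member. The log2 fold change of 1.73 ± 0.85 (SE) had a 95% interval of 1.04 to 10.6-fold and a DESeq2 adjusted p of 0.356, and was not called. Without control 1 it was 3.07, with an adjusted p of 1.45e-23, a call in a fit that called 3.49% of genes and 2.49% higher. Without control 2 or 3 it was 1.28 or 1.41 and not called. Unlike Bbc3, Pmaip1 in the library labelled Rx-Dicer 2 lay between Rx-Dicer 1 and 3.

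The 8 surface epithelium genes Trp63, Perp, Krt5, Krt8, Krt15, Krt18, Epcam and Cdh1, listed after the data were seen, had a summed level with the same order among controls as Pmaip1, though not every gene of the list did. The sums were 3454, 584 and 1739 normalised counts in controls against 1654, 810 and 1064 in Rx-Dicer, and Epcam was the highest by mean. Of the 8, none was at 0 in every library. Krt15 alone was called lower by DESeq2, against 1.18% of all genes tested. In Rx-Dicer the sum was within the range of the controls while Pmaip1 was above it. The part of such cells in the Pmaip1 values was not tested. In bulk tissue, fewer cells of a type and less RNA per cell cannot be told apart.

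Bmf and Bid gave no call. Bmf, a BH3-only protein held on the actin motor complex until it is released, had 1451, 1371 and 2356 normalised counts in controls against 1746, 1510 and 1724 in Rx-Dicer. Control 3 was the highest of the 6 libraries, while control 1 and 2 lay below all 3 Rx-Dicer libraries, and without control 3 the log2 fold change was 0.24, no call (DESeq2 adjusted p = 0.548). The log2 fold change was -0.06 ± 0.20 (SE), with a 95% interval of 0.733 to 1.26-fold and a DESeq2 adjusted p of 0.969. Bid, which caspase-8 cleaves to link death receptors to mitochondria, had 402, 440 and 376 normalised counts in controls against 427, 328 and 430 in Rx-Dicer. Its groups overlapped, the log2 fold change was -0.04 ± 0.18 (SE), and the interval ran from 0.764 to 1.24-fold (DESeq2 adjusted p = 0.979). The span of an annotated gene, Gm44260, overlaps that of Bid on the same strand. Whether their exons overlap was not examined, and any reads on exons of both were counted for neither.

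Neither pore-forming gene was called. Bax, a cytosolic protein that moves to mitochondria when activated, and a p53 target, had 1554, 1785 and 1633 normalised counts in controls against 2115, 1376 and 2079 in Rx-Dicer. Rx-Dicer 1 and 3 were above every control and the library labelled Rx-Dicer 2 below every control. The log2 fold change was 0.16 ± 0.18 (SE), with a 95% interval of 0.883 to 1.42-fold and a DESeq2 adjusted p of 0.825. Without the library labelled Rx-Dicer 2 it was 0.34 with an adjusted p of 0.0722, still no call. Bak1, the pore-former that resides in the mitochondrial membrane, had 2219, 2611 and 2578 normalised counts in controls against 2276, 2180 and 2373 in Rx-Dicer. These groups overlapped, with a log2 fold change of -0.12 ± 0.12 (SE), an interval of 0.78 to 1.09-fold and a DESeq2 adjusted p of 0.815. The span of Bax overlaps that of the annotated gene Gm45808 on its own strand, so any reads on exons of both are missing from its counts.

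None of the 3 pro-survival genes was called by DESeq2 or edgeR. Mcl1, a short-lived protein needed in neural progenitors, had 7970, 7240 and 7234 normalised counts in controls against 8028, 8305 and 8682 in Rx-Dicer. The groups did not overlap, but Rx-Dicer 1 exceeded control 1 by 58 counts only. The log2 fold change was 0.16 ± 0.11 (SE), 1.11-fold with a 95% interval of 0.963 to 1.29, and the DESeq2 adjusted p was 0.612. Groups that did not overlap, with Rx-Dicer higher, were thus found for 3 of 10 members (Bcl2l11, Pmaip1 and Mcl1), against 8.55% of all genes tested, and with Rx-Dicer lower for 0 of 10, against 10.7%. Bcl2l1, the pro-survival gene with the let-7 match, had 4199, 4394 and 3659 normalised counts in controls against 4175, 2954 and 3424 in Rx-Dicer. Its groups overlapped and its mean was lower in Rx-Dicer, with a log2 fold change of -0.22 ± 0.15 (SE), an interval of 0.7 to 1.06-fold and a DESeq2 adjusted p of 0.634. Bcl2, the founding member, which supports young neurons, had 851, 851 and 938 normalised counts in controls against 1136, 1076 and 826 in Rx-Dicer. Rx-Dicer 1 and 2 were above the controls and Rx-Dicer 3 below, and the log2 fold change was 0.20 ± 0.16 (SE), with an interval of 0.927 to 1.43-fold and a DESeq2 adjusted p of 0.698. The spans of Gm37053 and Mir3473f overlap that of Bcl2 on its own strand, so its counts also lack any reads on exons they share. Over the 10 members the median log2 fold change was 0.16, against -0.001 over all genes tested.

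**Figure D2:**
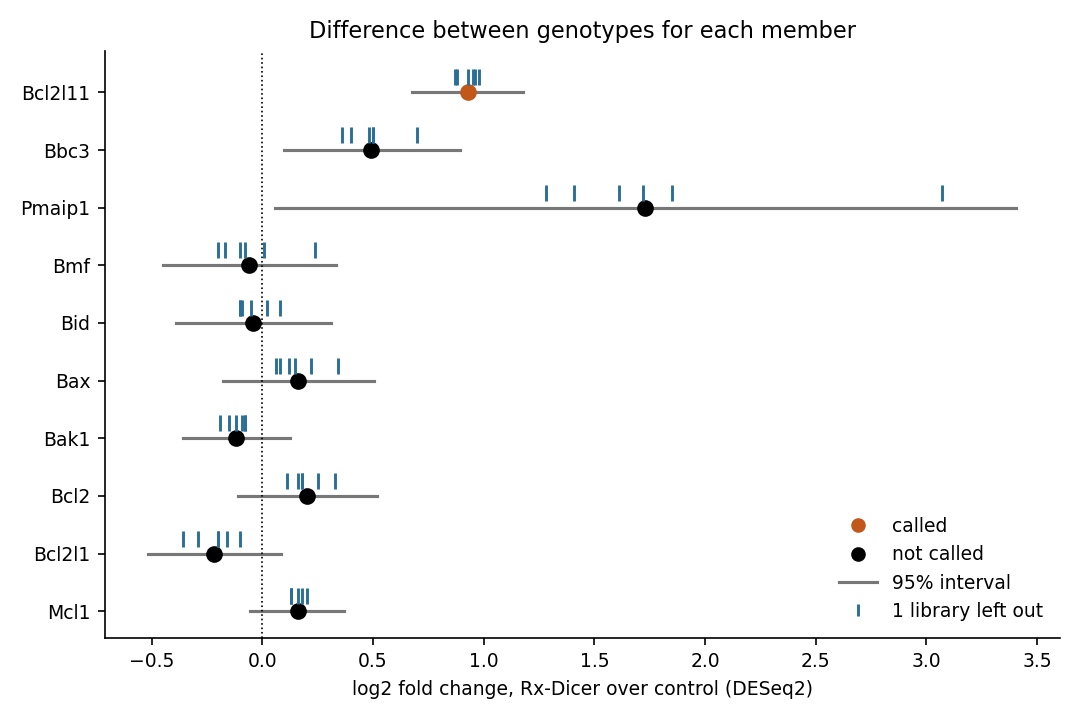
Log2 fold change of each member, Rx-Dicer over control, with its 95% interval (grey line) and the values when each library in turn is left out (blue ticks). Bcl2l11 stayed between 0.87 and 0.98 over these fits, while Pmaip1 ran from 1.28 to 3.07 and Bbc3 from 0.36 to 0.70.

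Members were next compared with each other on a scale that allows it, normalised counts per kilobase of annotated exon. All annotated exons were counted, so a gene with a long UTR that is little used reads too low. Any reads on exons shared with overlapping genes are missing for Bax, Bid and Bcl2. In controls Mcl1 stood highest by far, at 2190 ± 124 per kilobase (SD, n = 3). Bax (1050 ± 74.7), Bak1 (1030 ± 90.3) and Bcl2l1 (891 ± 83) came next, with ranges that overlapped between Bax and Bak1 and between Bak1 and Bcl2l1. Bmf (329 ± 104) and Bbc3 (222 ± 3.78) followed. Lowest were Bcl2l11 (128 ± 8.2), Bid (114 ± 9.1), Bcl2 (96.1 ± 5.43) and Pmaip1 (85.7 ± 90.8), of which Pmaip1 spanned from below to above the other 3. Transcripts of Mcl1 thus outnumbered those of the other pro-survival genes on this scale, and Bcl2 was the least abundant of them. In Rx-Dicer, Bcl2l11 had 243 ± 16.8 per kilobase, against 111 ± 16.3 for Bid and 111 ± 17.9 for Bcl2. It was above both in every library of either group, so this order did not differ between the genotypes.

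The classes were summed on the same scale, as a description without a test because the sums repeat the members above. BH3-only levels were 922, 760 and 954 per kilobase in controls against 1410, 1110 and 1280 in Rx-Dicer. All 3 Rx-Dicer sums lay above the controls, with means of 879 ± 104 and 1270 ± 150 (SD, n = 3 each), and Pmaip1 took a large part of the difference (85.7 against 284 per kilobase). Pore-forming levels were 1910, 2220 and 2110 in controls against 2290, 1780 and 2300 in Rx-Dicer, and overlapped. Pro-survival levels were 3340, 3170 and 3020 against 3380, 3190 and 3380, nearly the same in all 6 libraries. As a percentage of pro-survival levels, BH3-only transcripts were 27.6, 24 and 31.6% in controls against 41.7, 34.9 and 37.8% in Rx-Dicer. Bcl2l11 alone was 3.55, 4.21 and 4.37% of pro-survival levels in controls against 7.69, 7.1 and 7.22% in Rx-Dicer. Within the pro-survival class, Mcl1 made up 68.9 ± 1.86% in controls and 73.6 ± 3.64% in Rx-Dicer, and Bcl2l1 28 ± 1.97% and 23.1 ± 3.45%. These are transcript ratios, and protein levels, on which the family's balance depends, were not measured.

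**Figure D3:**
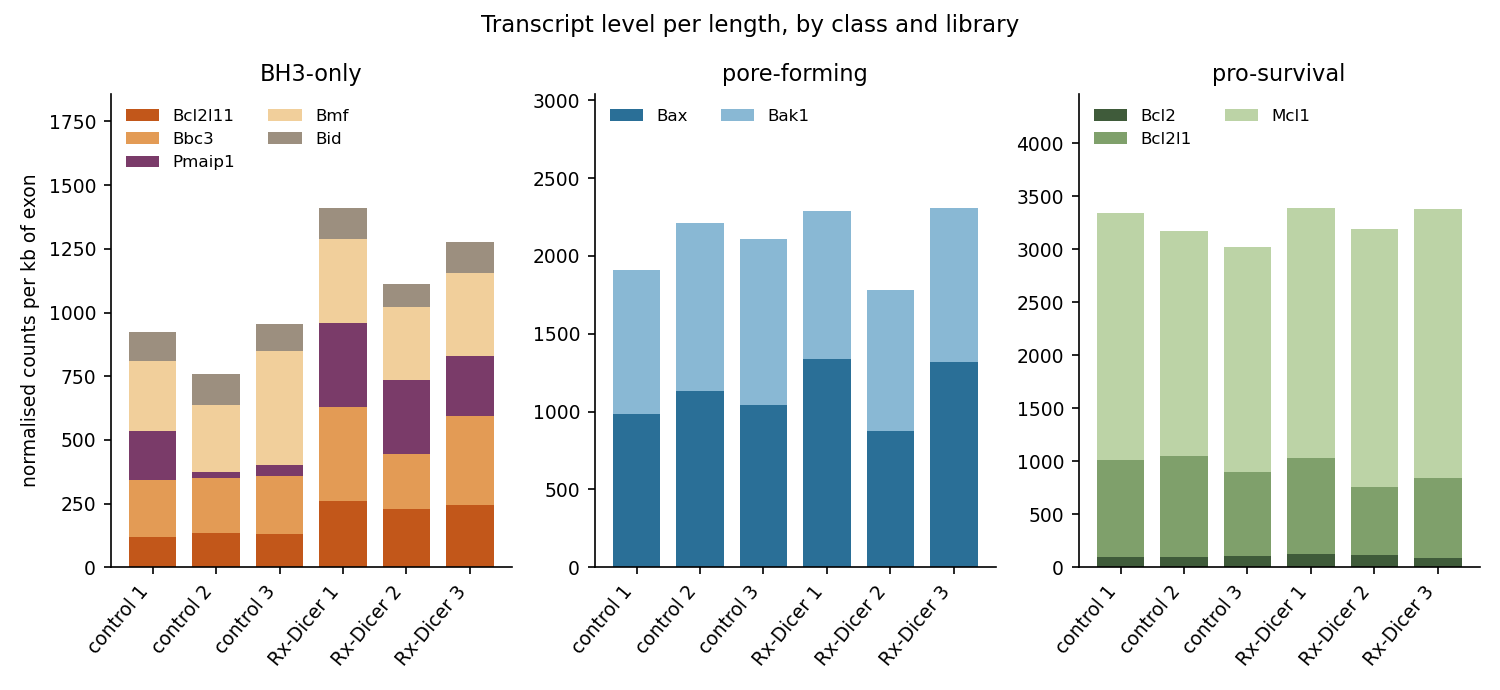
Stacked levels of the members in each library, as normalised counts per kilobase of annotated exon (y axes from 0, a scale of their own per panel), by class. BH3-only stacks run from 760 to 954 in controls and from 1110 to 1410 in Rx-Dicer, while pro-survival stacks run from 3020 to 3380 over all 6 libraries.

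Genes that act with the members were then examined. Of 16 other genes of the family, 10 had enough counts to be tested and none was called by DESeq2 or edgeR. By each test 1 had an unadjusted p under 0.05, against 13.1% of all genes tested by DESeq2. The median log2 fold change of the 10 was -0.083. The 3 most abundant were Bnip3l, a mitophagy receptor, at 0.01 ± 0.13 (SE), Bcl2l13, a mitochondrial membrane protein, at -0.01 ± 0.12, and Becn1, an autophagy protein that BCL2 binds, at -0.07 ± 0.11. The gene with the low p was Bad, a BH3-only protein that growth factor signalling phosphorylates and inactivates, named here after its values were seen. It had 1049, 1264 and 1283 normalised counts in controls against 1050, 807 and 869 in Rx-Dicer. The difference, -0.40 ± 0.16 (SE) on the log2 scale, was no call (DESeq2 adjusted p = 0.166). Without Rx-Dicer 1 Bad was called lower, at -0.52 with a DESeq2 adjusted p of 0.0269. That fit called 4.22% of genes, with 371 lower, against 202 lower with all libraries. The 6 genes not tested (Bcl2a1a, Bcl2a1b, Bcl2a1d, Bcl2l10, Bcl2l14 and Bcl2l15) had means of 5.81 normalised counts or fewer.

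Downstream of the members, 21 genes of the mitochondrial death pathway were tested, among them cytochrome c, the apoptosome and the caspases it activates. None was called by DESeq2 or edgeR. By DESeq2 2 had an unadjusted p under 0.05, against 13.1% of all genes tested, and by edgeR 3. The median log2 fold change of the 21 was 0.037. The 3 most abundant were Parp1, a DNA repair enzyme that caspases cleave, at -0.11 ± 0.11 (SE), Vdac1, a channel of the outer membrane, at 0.00 ± 0.12, and Birc6, an inhibitor of apoptosis, at 0.21. Groups did not overlap for 1 of the 21 with Rx-Dicer higher and for 2 with Rx-Dicer lower, against 8.55% and 10.7% of all genes tested, and these 3 are named here after their values were seen. Apaf1, the scaffold of the apoptosome, was higher in all 3 Rx-Dicer libraries (2791, 2771 and 2795 against 2352, 2322 and 2546 normalised counts; log2 fold change 0.21 ± 0.11, DESeq2 adjusted p = 0.397). Cycs, the cytochrome c gene, was lower in all 3 (3086, 2463 and 3005 against 3206, 3656 and 3542; -0.28 ± 0.13, DESeq2 adjusted p = 0.316), and so was Birc5, an inhibitor of apoptosis also needed for cell division (3808, 4198 and 4452 against 4693, 4941 and 4977; -0.23 ± 0.11, DESeq2 adjusted p = 0.358).

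Of 25 genes that regulate the members, none was called by DESeq2 or edgeR. By each test 3 had an unadjusted p under 0.05, against 13.1% of all genes tested by DESeq2. The median log2 fold change of the 25 was 0.068. The most abundant were Huwe1, the ubiquitin ligase of Mcl1, at 0.04 ± 0.14 (SE), Dynll2, the motor light chain that holds Bmf, at -0.20 ± 0.11, and Dynll1, that of Bim, at -0.08 ± 0.12. Foxo3, a transcription factor known to activate Bcl2l11 and Bbc3, was named after its values were seen. It had 1568, 1831 and 1686 normalised counts in controls against 2404, 1802 and 2456 in Rx-Dicer. Like Bbc3, it was high in Rx-Dicer 1 and 3 and at the control level in the library labelled Rx-Dicer 2. The difference of 0.39 ± 0.15 (SE) on the log2 scale was no call (DESeq2 adjusted p = 0.17). Without that library it was called (0.52, DESeq2 adjusted p = 0.0011), in a fit that called 3.77% of genes and 2.55% higher. The p53 gene, Trp53, also named after its values were seen, had 6079 ± 207 normalised counts in controls and 6928 ± 691 in Rx-Dicer, a log2 fold change of 0.19 ± 0.12 that was not called (DESeq2 adjusted p = 0.56). Trp63 was called lower without control 2 (-4.48, DESeq2 adjusted p = 0.0391) and without Rx-Dicer 1 (-5.71, DESeq2 adjusted p = 0.0224). These fits called 1.53% and 4.22% of genes, with 113 and 371 lower. With all libraries Trp63 was not called (-3.92, DESeq2 adjusted p = 0.161). It is 1 of the surface epithelium genes above.

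p53 targets outside the family were set beside Bbc3, Pmaip1 and Bax, which p53 also transcribes. Of 30 listed targets 28 were tested. DESeq2 called 7 higher and none lower, against 1.75% and 1.18% of all genes tested. Of the 28, 11 had an unadjusted p under 0.05 by DESeq2, against 13.1%. edgeR called none, against 0.0446% of all genes it tested. By edgeR 12 had an unadjusted p under 0.05, against 2313 of 17954 genes. The study itself reported p53 signalling on these samples, so the list is not independent evidence of a direction. Their median log2 fold change was 0.19. Ccng1, a cyclin induced by p53, had 2020, 1645 and 1647 normalised counts in controls against 6134, 3410 and 5903 in Rx-Dicer, and Eda2r, a death receptor, 142, 90.6 and 54.5 against 928, 280 and 630. In both, every Rx-Dicer library was above every control and the library labelled Rx-Dicer 2 was the lowest of the 3. The other 5 called were Tnfrsf10b, also a death receptor, at a log2 fold change of 0.99, Sesn2, a stress-induced inhibitor of mTORC1, at 0.94, the antiproliferative gene Btg2 at 0.87, Trp53inp1, a cofactor of p53, at 0.68, and Zmat3, an RNA-binding protein gene, at 0.49, with DESeq2 adjusted p of 0.000123 to 0.0454 over these 5.

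The library labelled Rx-Dicer 2 was lower than Rx-Dicer 1 and 3 in the p53 list as in Bbc3 and Bax. The mean log2 level of the 28 targets relative to the control mean was 0.19, -0.09 and -0.11 in controls against 0.68, 0.11 and 0.47 in Rx-Dicer. By this mean the library lay within the control range, though the list holds Perp, a surface epithelium gene above. Perp had 475 normalised counts in control 1 and 25.5 in Rx-Dicer 2. Groups did not overlap for 10 of the 28 with Rx-Dicer higher and for 0 with Rx-Dicer lower, against 8.55% and 10.7% of all genes tested. Rx-Dicer 2 was above every control in those 10 by definition, since the groups did not overlap. For Bcl2l11 the library labelled Rx-Dicer 2 was also the lowest of the 3, but its 3 Rx-Dicer values were within 1.15-fold of each other. Microglia markers were lower in Rx-Dicer 2 by more than that. Their 10 genes summed to 1566, 1353 and 1571 normalised counts in controls against 5215, 1490 and 3217 in Rx-Dicer. DESeq2 called 2 of the 10, Cx3cr1 and Csf1r, both higher, against 1.75% of all genes tested. No marker was at 0 in every library. edgeR called none, with 8 at an unadjusted p under 0.05, against 2313 of the 17954 genes it tested. The part of microglia in the levels of the members was not tested. Without the library labelled Rx-Dicer 2 the log2 fold change of Bcl2l11 was 0.98.

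**Figure D4:**
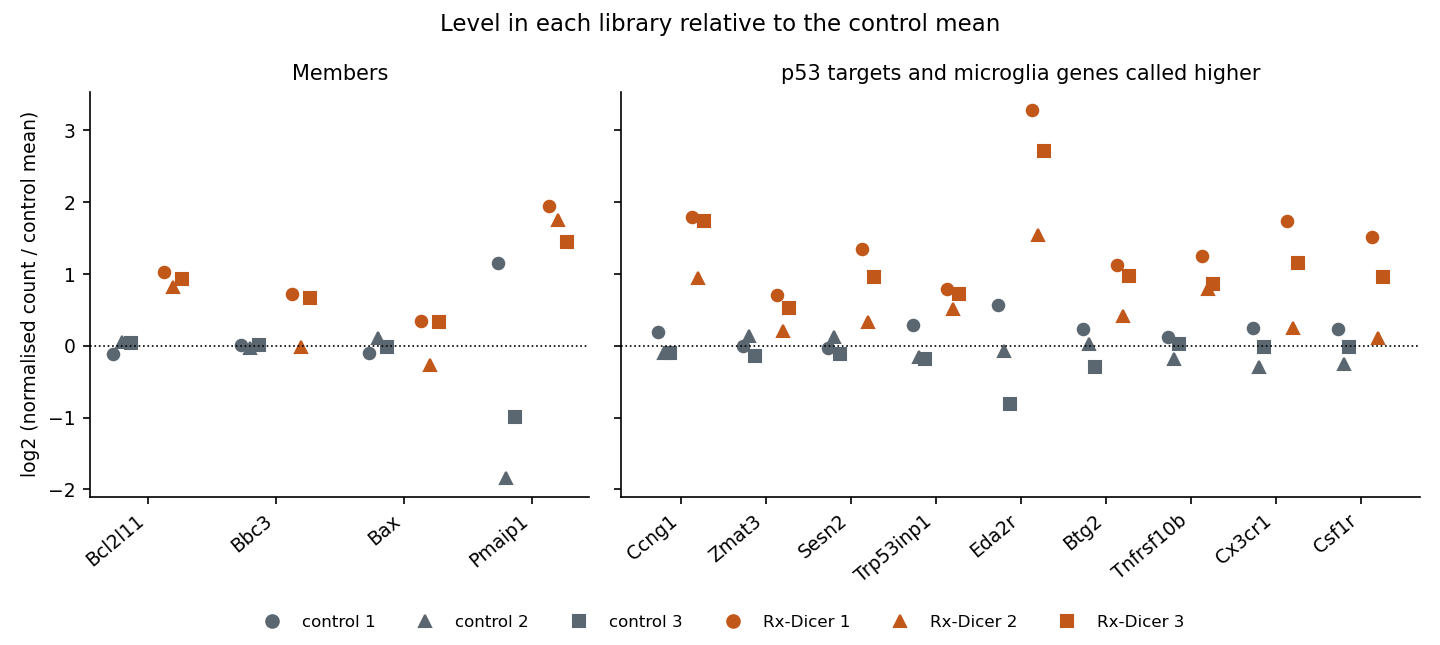
Log2 ratio of each library's normalised count to the control mean, for Bcl2l11, Bbc3, Bax and Pmaip1 (left) and for the 7 called p53 targets and the 2 called microglia genes (right). Points are libraries, grey for control and orange for Rx-Dicer, and triangles are replicate 2. The triangle of Rx-Dicer 2 lies with Rx-Dicer 1 and 3 for Bcl2l11 and Pmaip1, and below them for Bbc3 and Bax and, to varying degrees, for the p53 targets and microglia genes.

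Promoters of the members were searched for the p53 consensus, because Bbc3, Pmaip1 and Bax are p53 targets. RefSeq windows for GRCm38.p6, from 250 bases before to 50 after a start, were given for 9 members, in 16 windows, and not for Pmaip1. A match needed the fixed C and G of each of a pair of 10-base elements, 0 or 1 base apart. Each element needed at least 8 matching bases, and the pair 17 of 20 in all, a threshold set after the data were seen. The consensus is its own reverse complement, so both strands were covered. Matches were found for Bax and Bbc3, and 2.41% of 32851 windows of this length held one. They are shown in capitals, with a spacer base in lower case. The Bax match, chr7:45467079-45467099 on the minus strand, lies 201 to 181 bases before the RefSeq start and has 18 of 20 bases, which 0.682% of windows reached. The Bbc3 match, chr7:16309486-16309505 on the plus strand, lies 97 to 78 bases before a RefSeq start and has 17 of 20. This match lies inside the annotated span of Bbc3 given above. Bbc3 had 3 windows and Bax 1, while the shares are per window.
Bax promoter: AGGCAAGCTTtGAACTTGCGG
Bbc3 promoter: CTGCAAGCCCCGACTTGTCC
Both members with a match had the library labelled Rx-Dicer 2 at or below the controls, and neither was called with all libraries. The windows of Bcl2l11, the member that was called, held no match at this threshold, which says only that these letters are not in these windows.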

How the data were processed

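Directional RNA-seq libraries of 3 control and 3 Rx-Dicer samples were read as pairs of 100 bases. The deposited values were raw counts of reads per Ensembl gene: the authors trimmed reads with Trim Galore 0.6.5, aligned them to GRCm38.p6 with HISAT2 and counted them with HTSeq 0.12.4, in union mode and on the reverse strand, so reads on overlapping genes of a strand or at several places were not counted. The 2 files of a sample differed by a chi-square per degree of freedom of 1.13 to 1.52, against 22.5 to 32.6 between samples of a group, and were summed as repeat runs. Lines that name no gene were left out of totals; of uniquely placed reads (in a gene, in none, or ambiguous), those in none made up 8.15 to 13.2% and ambiguous ones 1.86 to 2.24%.

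Wald tests of DESeq2 1.42.0 in R 4.3.3, the tool of the study, compared the genotypes over all genes, with genotype as the only term, unshrunken fold changes, independent filtering and Benjamini-Hochberg adjustment over all genes tested. A call needed an adjusted p under 0.05 and a log2 fold change beyond 0.32 in either direction (the fold change threshold of the study). The alternatives were edgeR's quasi-likelihood test (edgeR 4.0.16) on genes that reached 10 counts in 3 or more samples, TMM and total-count scaling, that filter or no independent filtering, an adjusted p under 0.1, no fold minimum, each file alone, the replicate number as a block, and each library left out in turn. Mean log2 levels used normalised counts with a pseudocount of 0.5. Floors and intervals of counts cover counting error only.

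The members, the gene lists and the miRNAs were chosen with earlier results of these data known. Named genes were the 10 members, Dicer1 and, of each list, the genes called or otherwise the 3 most abundant, and others are marked as named after their values were seen. 3′ UTRs are the longest annotated ones of the GENCODE annotation of GRCm38, and promoter windows and mature miRNAs come from RefSeq for GRCm38.p6. The tests were tested on simulated data. The small RNA data were not analysed here. Values of some listed genes are not reported here, and these genes stay in the counts and sums.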

Additional observations from a re-analysis of the deposited data

How the results depend on the processing

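Bcl2l11 was called under all 17 alternatives, with a log2 fold change of 0.87 to 0.99 and an adjusted p of 8.09e-13 to 0.043, the highest with edgeR without the library labelled Rx-Dicer 2, an alternative added after the data were seen. Bak1, Bcl2, Bcl2l1, Mcl1, Bax and the death pathway list gave no call under any of 16 alternatives. Leaving out single libraries gave 1 to 2 members called, 0.36 to 0.70 for Bbc3, 1.28 to 3.07 for Pmaip1, -0.20 to 0.24 for Bmf, -0.10 to 0.08 for Bid, 0 to 1 call among regulators and among other family genes, 5 to 10 calls among p53 targets, and 285 to 637 calls over all genes, against 502 (285 without control 2 and 309 without Rx-Dicer 3). Bmf changed sign without control 3 (0.24) and without Rx-Dicer 2 (0.01), and Bid without control 2 (0.02) and without Rx-Dicer 2 (0.08). None of these 4 values was called.

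edgeR called 8 genes over all and 0 p53 targets against 7, and 18 genes without Rx-Dicer 2. DESeq2 without independent filtering called 322. Deviations from the group mean had correlations of 0.19, 0.04 and -0.14 between same-numbered libraries, against -0.18 to 0.17 between libraries of different number. With 3 libraries a group these values cannot decide whether the numbers pair the samples, which the labels do not state. With the replicate block 314 genes were called, and 1 member, Bcl2l11 (adjusted p 1.35e-06). The cause was not tested. With 3 libraries a group, changes within the 95% intervals given for the members that were not called cannot be told from none.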
